A study of Drosophila melanogaster with 12 samples.

Results

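Cadherins are transmembrane proteins that hold neighbouring cells together through calcium-dependent binding of their extracellular domains, and catenins link classical cadherins to the actin cytoskeleton. This account concerns 10 such genes of *Drosophila melanogaster*, taken by name. They are the classical cadherins *shotgun* (*shg*), *Cadherin-N* (*CadN*) and *Cadherin-N2* (*CadN2*), the large atypical cadherins *dachsous* (*ds*), *fat* (*ft*), *kugelei* (*kug*) and *starry night* (*stan*), the protocadherin *Cad99C*, and the catenins *armadillo* (*arm*) and *alpha-Catenin* (*alpha-Cat*). Of the 10 genes, 9 were matched to the count files by their FlyBase identifier and all 9 were among the 9966 genes tested of 15682 counted. *ds* was not analysed here, because its identifier in the reference annotation had no match.

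RNA was measured by sequencing nuclear RNA from glial nuclei, isolated through a GFP tag anchored in the nuclear membrane (KASH-GFP) that the glial driver *repo*-GAL4 expressed in larval eye-brain complexes at the wandering stage of the third instar. There were 4 libraries for each of 3 genotypes, 12 in all, and each library came from many pooled complexes. Wild-type larvae carried the *repo*-GAL4 and UAS-KASH-GFP transgenes over the balancer chromosome TM3. *nonstop* larvae were homozygous for a P-element allele of *not* and *sgf11* larvae for a piggyBac allele of *sgf11*, both with the same pair of transgenes. *not* and *sgf11* encode subunits of the deubiquitinase module of the SAGA complex, which removes ubiquitin from histone H2B. Mutant allele, strain background and balancer cannot be told apart in this design, and TM3 replaces the chromosome on which *kug*, *alpha-Cat* (arm 3L) and *Cad99C* (arm 3R) lie. Isolation by affinity enriches for tagged nuclei but does not give pure glia, and in such bulk samples fewer cells of a type and less RNA per cell cannot be told apart.

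Each library had 6913032 to 11459317 counts assigned to genes. Levels are given in CPM, the share of these counts scaled to a common library size and corrected for library composition by the TMM method, and differences as log2 fold changes with their standard error (SE) and the false discovery rate (FDR) of edgeR's quasi-likelihood test over all 9966 genes. A gene was called at an FDR under 0.01. As a check of the labels, *nonstop* libraries held 9.80 ± 0.911 CPM of *not* against 26.8 ± 2.43 in wild type (SD, n = 4 each). *not* was also called lower in *sgf11* glia, at 17.2 ± 2.57 CPM (log2 fold change -0.63, FDR 6.628e-04), and *Sgf11* had 2 counts over the 4 *sgf11* libraries. No glial marker of a list of 12 was at 0 in any library, and neither was any marker of neurons, neuroblasts, eye disc or epithelium.

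In embryos and imaginal discs, *shg* encodes E-cadherin, the cadherin of epithelial adherens junctions, while *CadN* is best known for the adhesion of axons and their targets in the visual system. *arm* encodes beta-catenin, which binds the tail of classical cadherins and also carries the Wingless signal to the nucleus, and *alpha-Cat* joins beta-catenin to actin. *ft* and *ds* bind each other between cells and act on the Hippo growth pathway and on planar cell polarity. *stan* encodes the cadherin of the core planar polarity module, *kug* (Fat2) orients the follicle cells of the ovary, and *Cad99C* is a protocadherin of microvilli.

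Transcripts of all 9 genes were found in the wild-type libraries, at levels that spanned a wide range. Which cells of these enriched but not pure preparations held them was not tested. Compared per kilobase of exon, *arm* was the highest at 74.2 ± 5.25 CPM per kb (SD, n = 4), followed by *alpha-Cat* at 42.2 ± 3.67 and *kug* at 34.2 ± 2.96 (same unit and n). The neuronal cadherin *CadN*, at 28.4 ± 5.49 CPM per kb, and the epithelial cadherin *shg*, at 27.1 ± 0.526, did not differ beyond their spread: *CadN* was above *shg* in 2 of the 4 libraries. The ranges of *kug* and *CadN* overlapped too, though *kug* was the higher in 4 of 4 libraries. Below these were *stan* at 10.2 ± 2.2 CPM per kb, *ft* at 4.77 ± 1.07, *Cad99C* at 2.35 ± 0.644 and *CadN2*, a close paralog of *CadN*, at 1.154 ± 0.261 (SD, n = 4 for each). No other neighbours in this order overlapped. Among the 9476 tested genes with an exon length, *arm* stood at percentile 95.8, *CadN* at 86.7, *shg* at 85.9 and *CadN2* at 15.2.

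**Figure D1:**
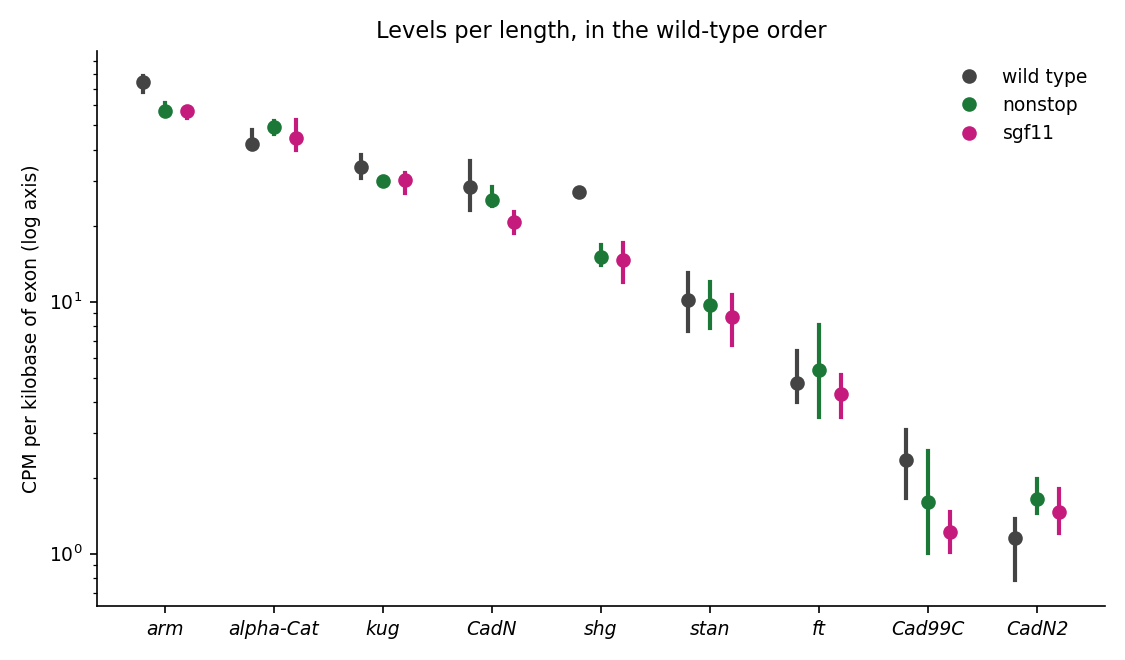
Levels of the 9 genes in CPM per kilobase of exon (log axis), coloured by genotype. Points are means and lines span the lowest to the highest of 4 libraries. In wild type the order runs from *arm* (mean 74.2 CPM per kb) to *CadN2* (1.154), and *shg* leaves the range of *CadN* in both mutants.

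In the mutants, *shg* and *CadN* no longer overlapped, with *shg* at 14.97 ± 1.26 CPM per kb and *CadN* at 25.3 ± 2.10 in *nonstop* glia, and at 14.6 ± 2.21 and 20.8 ± 1.81 in *sgf11* glia (SD, n = 4 for each). *CadN2* and *Cad99C*, apart in wild type, overlapped in both mutants, at 1.65 and 1.60 CPM per kb in *nonstop* and at 1.46 and 1.22 in *sgf11* glia. *arm*, *alpha-Cat* and *kug* held the first 3 places in each genotype. *kug* and *CadN* were apart in both mutants, and *stan* and *ft* overlapped in *nonstop* glia.

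Tested against wild type, *shg* and *arm* fell in both mutants, and *CadN* and *Cad99C* fell in *sgf11* glia. In *nonstop* glia 2 of the 9 genes were called lower and 0 higher, beside 17.0% of all tested genes called lower and 18.7% higher. In *sgf11* glia 4 of 9 were called lower and 0 higher, beside 14.1% and 16.4% of all tested genes. At an unadjusted p under 0.05 in the same test, 2 genes were higher and 3 lower in *nonstop* glia, and 0 higher and 4 lower in *sgf11* glia. The share of all genes at that threshold was not computed. No gene of the 9 was called higher by edgeR's exact test, DESeq2 or limma-voom. The median log2 fold change of the 9 genes was -0.17 in *nonstop* and -0.23 in *sgf11* glia, beside 0.006 and 0.015 over all genes tested. Both medians of the 9 lay within the quartiles of all genes (-0.364 to 0.532 in *nonstop*, -0.324 to 0.495 in *sgf11* glia). The 2 comparisons share their 4 wild-type libraries and so are not independent.

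**Figure D2:**
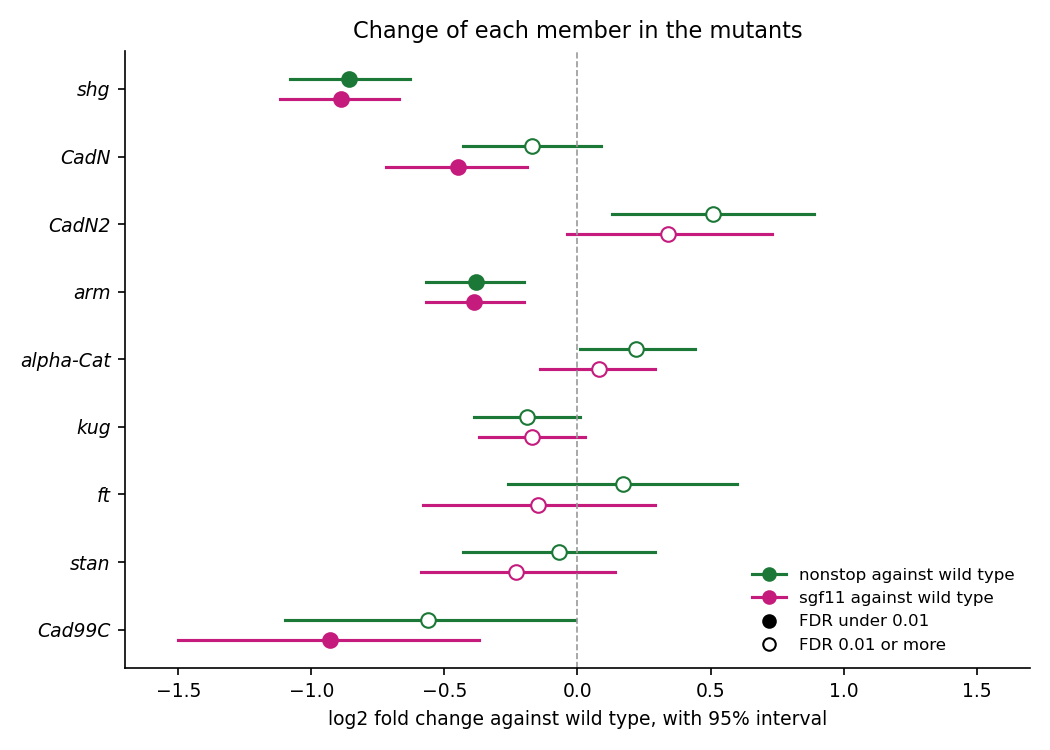
Log2 fold change over wild type for each of the 9 genes in *nonstop* and *sgf11* glia, with 95% confidence intervals. Filled points have an FDR under 0.01: *shg* and *arm* in both mutants, *CadN* and *Cad99C* in *sgf11* only.

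*shg* had the largest fall of the genes called in *nonstop* glia. Its wild-type libraries held 171.9, 170.1, 177.9 and 174.1 CPM, the *nonstop* libraries 90.53, 89.77, 107.2 and 95.73 CPM, and the *sgf11* libraries 109.0, 99.81, 88.13 and 76.48 CPM. The wild-type libraries were nearly alike and all 8 mutant libraries lay below them, as for 15.3% of all genes tested. In *nonstop* glia the log2 fold change was -0.86 (SE 0.11, FDR 4.555e-06), a change of -44.8%. In *sgf11* glia it was -0.89 (SE 0.11, FDR 3.789e-06), a change of -46.1%. Both mutants were called under all 24 alternative settings. *shg* is among the qRT-PCR targets of the study, which were chosen from genes found changed in these libraries.

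*arm*, the beta-catenin gene, fell by less than *shg* in both mutants. Its wild-type libraries held 279.6, 257.2, 279.9 and 241.5 CPM, the *nonstop* libraries 201.4, 219.3, 197.6 and 193.3 CPM, and the *sgf11* libraries 209.9, 202.5, 205.9 and 191.1 CPM. No mutant library reached the lowest wild-type library. Of all genes tested, 15.3% had all 8 mutant libraries below wild type, and 21.1% had all *nonstop* libraries below it. The log2 fold change in *nonstop* glia was -0.38 (SE 0.09, FDR 0.001663), and that in *sgf11* glia -0.39 (SE 0.09, FDR 0.001768). Of the exon bases of *arm*, 2.3% overlap *mRpL16* on the opposite strand, and reads of the 2 genes cannot be told apart there since reads were counted without strand. Without library 3 of wild type and of *nonstop*, *arm* in *nonstop* glia had an FDR of 0.0167 (log2 fold change -0.32).

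*alpha-Cat*, the other catenin, was not called in either mutant in the main fit. Under 2 of 24 alternatives, of scaling and of filter, it was called higher in *nonstop* glia (log2 fold change 0.37 in both, FDR 0.004981 and 0.003587). Wild-type libraries held 140.2, 140.9, 166.4 and 141.4 CPM and *nonstop* libraries 180.8, 175.1, 170.7 and 160.5 CPM, with a log2 fold change of 0.22 (SE 0.10, 95% interval 0.01 to 0.44, FDR 0.0812). The *sgf11* libraries held 182.7, 139.4, 159.2 and 139.8 CPM, with a log2 fold change of 0.08 (SE 0.10, 95% interval -0.14 to 0.29, FDR 0.566). Wild-type library 3 overlapped the mutants, and the other wild-type libraries lay below every *nonstop* library.

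Because the 3 junction components act as a complex, their levels were also set against each other within each library, as ratios per kb that do not depend on library scaling. These ratios were chosen after the values were seen and are described without a test. The ratio of *shg* to *alpha-Cat* was 0.645 ± 0.0419 (SD, n = 4) in wild type, against 0.305 ± 0.0341 in *nonstop* and 0.329 ± 0.0426 in *sgf11* glia. The ratio of *arm* to *alpha-Cat* was 1.76 ± 0.139 in wild type, against 1.16 ± 0.0585 in *nonstop* and 1.29 ± 0.126 in *sgf11* glia. Neither ratio overlapped between wild type and either mutant. The ratio of *shg* to *arm* was 0.367 ± 0.0256 in wild type, against 0.264 ± 0.0321 in *nonstop* and 0.256 ± 0.0309 in *sgf11* glia, which did not overlap with wild type either. The E-cadherin transcript was low relative to both catenin transcripts in all 8 mutant libraries compared with the 4 wild-type libraries.

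**Figure D3:**
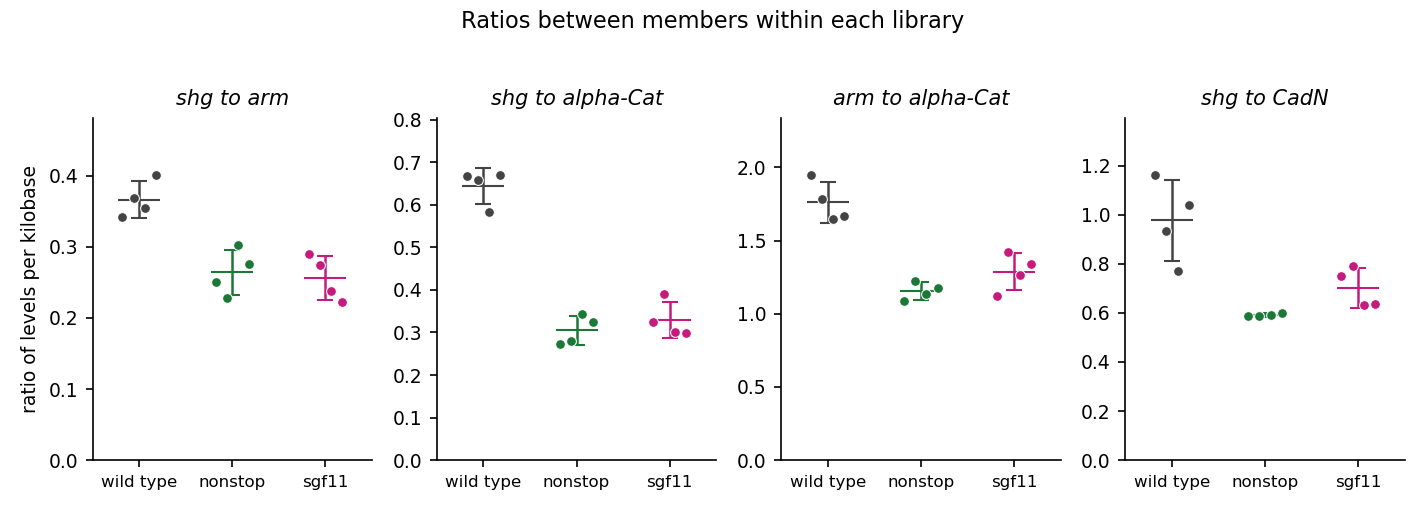
Within-library ratios of levels per kb, 1 point per library with the mean and SD of each genotype, on linear axes from 0. The *shg* to *alpha-Cat* ratio lies at 0.583 to 0.671 in wild type and at 0.273 to 0.390 in the mutant libraries.

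Of the other classical cadherins, *CadN* fell in *sgf11* glia and *CadN2* was called in neither mutant. *CadN* had 332.6, 409.7, 518.1 and 376.9 CPM in the wild-type libraries, 347.6, 343.2, 408.9 and 358.4 CPM in those of *nonstop*, and 326.0, 284.3, 314.7 and 270.1 CPM in those of *sgf11*. The *sgf11* libraries all lay below wild type, as for 19.3% of all genes tested, while those of *nonstop* overlapped it. Its log2 fold change was -0.45 in *sgf11* glia (SE 0.12, FDR 0.006848), against -0.17 in *nonstop* glia (SE 0.12, FDR 0.279). Without wild-type library 3, the highest, the value in *sgf11* glia was -0.30 and its FDR 0.0373. The call was also lost without wild-type library 2 or 4 or *sgf11* library 2, 3 or 4 (FDR from 0.01014 to 0.02912). The difference between the mutants was 0.29 (95% interval 0.02 to 0.55, FDR 0.243).

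*CadN2* was low in every library. Its wild-type libraries held 9.379, 6.259, 11.02 and 10.21 CPM, the *nonstop* libraries 11.62, 12.65, 15.83 and 12.75 CPM and the *sgf11* libraries 12.46, 10.16, 9.678 and 14.36 CPM. Every *nonstop* library lay above every wild-type library, as for 21.8% of all genes tested, but the log2 fold change of 0.51 (SE 0.18, FDR 0.0254) did not pass the threshold. In *sgf11* glia it was 0.34 (SE 0.18, FDR 0.137). Under 2 of 23 alternatives *CadN2* was called higher in *nonstop* glia, with other TMM factors (0.66, FDR 0.008991) and at an FDR of 0.05. Reads shared between the paralogs *CadN* and *CadN2* were not tested for.

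Summed per kb, the 3 classical cadherins were at 56.7 ± 5.99 CPM per kb (SD, n = 4) in wild type, against 42.0 ± 3.57 in *nonstop* and 36.8 ± 3.57 in *sgf11* glia. *shg* made up 48.1 ± 4.17% of this sum in wild type, against 35.7 ± 0.261% in *nonstop* and 39.5 ± 2.88% in *sgf11* glia, and *CadN* 49.8%, 60.4% and 56.5%. The share of *shg* was below the lowest wild-type library in all 4 *nonstop* libraries (highest 36.1%, wild type from 42.7%) and in 4 of 4 *sgf11* libraries (highest 42.6%). These shares are a description with no test.

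Of the large atypical cadherins, none was called in either mutant. *kug*, the most abundant of them per kb, had 450.4, 497.9, 553.1 and 482.7 CPM in the wild-type libraries, 419.0, 453.0, 440.0 and 427.3 CPM in those of *nonstop*, and 448.3, 456.3, 468.8 and 391.9 CPM in those of *sgf11*. Its log2 fold change was -0.19 (95% interval -0.39 to 0.01, FDR 0.113) in *nonstop* and -0.17 (-0.37 to 0.03, FDR 0.168) in *sgf11* glia. All groups overlapped.

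*stan*, the polarity cadherin, varied between libraries of a genotype by more than the means of the genotypes differed. Its libraries held 103.3, 135.8, 175.9 and 136.4 CPM in wild type, 112.1, 106.2, 162.2 and 144.1 CPM in *nonstop*, and 144.5, 90.71, 102.9 and 131.9 CPM in *sgf11* glia. The log2 fold change was -0.07 (95% interval -0.43 to 0.29, FDR 0.752) in *nonstop* and -0.23 (-0.59 to 0.14, FDR 0.301) in *sgf11* glia. *ft*, the receptor of Dachsous, also overlapped between all groups, and library 3 was the highest in wild type and in *nonstop*.

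For *ft* the libraries held 72.39, 67.43, 106.9 and 74.63 CPM in wild type, 73.77, 58.78, 136.3 and 92.67 CPM in *nonstop*, and 85.93, 58.55, 66.87 and 78.03 CPM in *sgf11* glia. Its log2 fold change was 0.17 (95% interval -0.26 to 0.60, FDR 0.520) in *nonstop* and -0.15 (-0.58 to 0.29, FDR 0.592) in *sgf11* glia. Without *nonstop* library 3 the first was -0.10, and without wild-type library 3 the second was 0.04.

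*Cad99C* was among the least abundant and most variable genes. Its libraries held 11.56, 9.664, 17.98 and 15.37 CPM in wild type, 5.995, 5.836, 14.87 and 10.37 CPM in *nonstop*, and 8.492, 5.916, 6.012 and 7.894 CPM in *sgf11* glia. All *sgf11* libraries lay below wild type, as for 19.3% of all genes tested, and *nonstop* libraries 3 and 4 overlapped it. Its log2 fold change was -0.93 in *sgf11* glia (SE 0.27, FDR 0.00934) and -0.56 in *nonstop* glia (SE 0.26, FDR 0.0863). The call in *sgf11* glia was lost without wild-type library 1, 3 or 4, *nonstop* library 4 or any 1 *sgf11* library, with the smallest fall without wild-type library 3 (-0.75, FDR 0.0460), and without *nonstop* library 3 that in *nonstop* glia was -0.86 with an FDR of 0.00957.

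**Figure D4:**
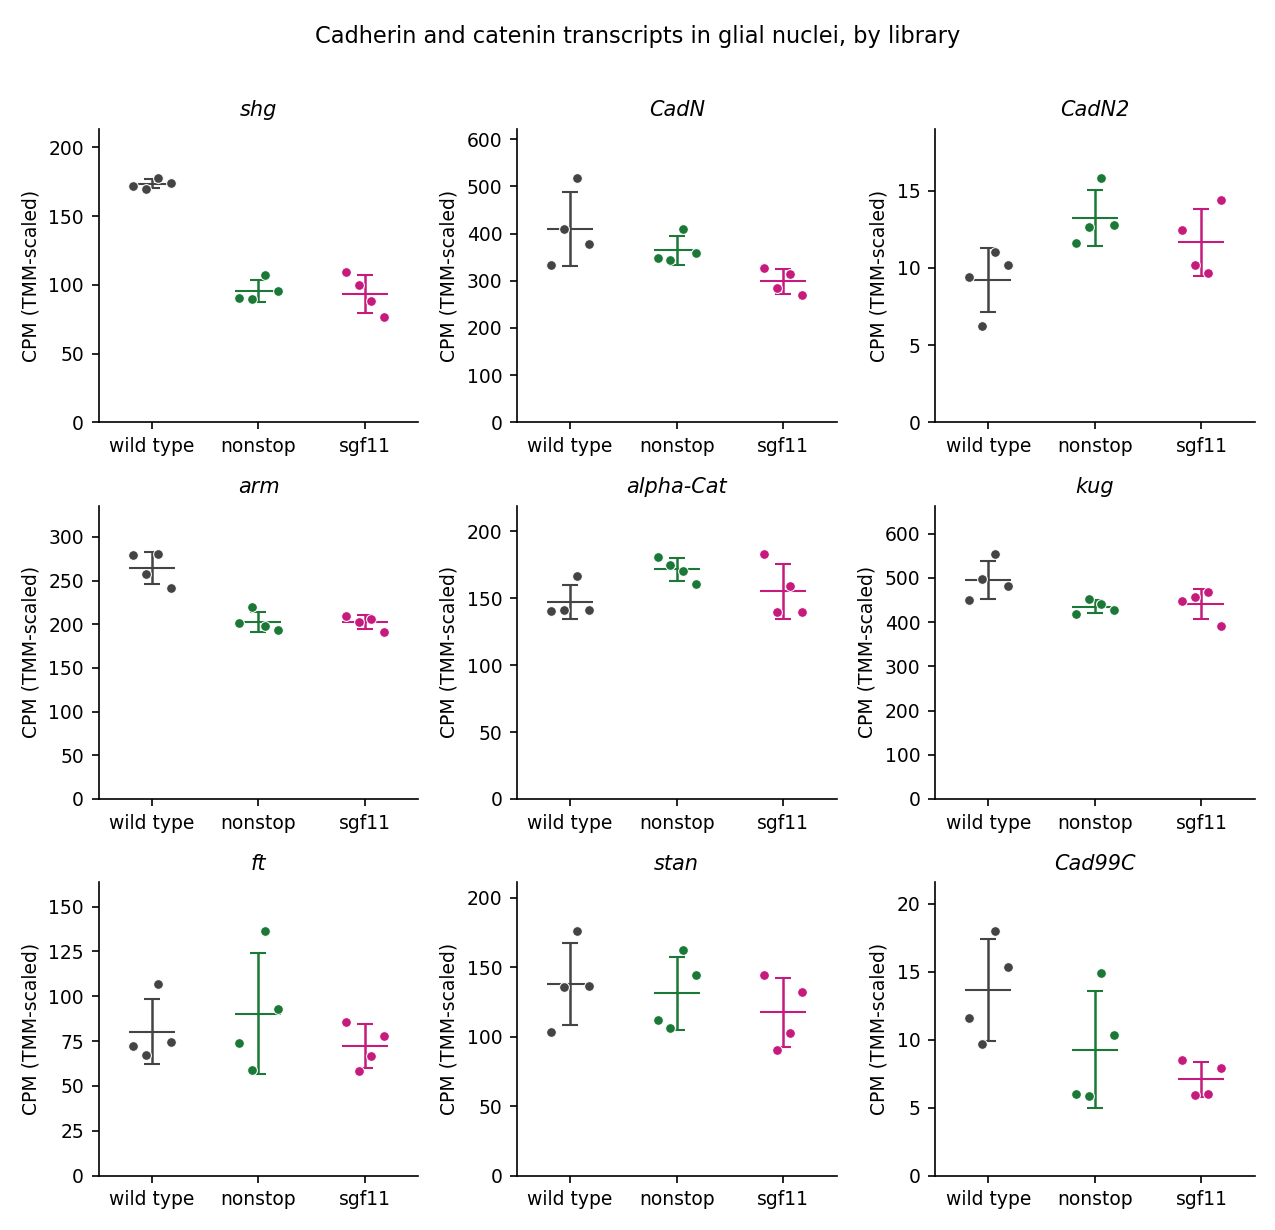
CPM of each of the 9 genes in all 12 libraries, on linear axes from 0, 1 panel per gene and 1 colour per genotype, with the mean and SD of each genotype. *shg* lies at 170.1 to 177.9 CPM in wild type and at 76.48 to 109.0 CPM in the mutants without overlap, while *ft*, *stan* and *kug* overlap.

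Compared directly, the 2 mutants had 0 of the 9 genes called different by edgeR's quasi-likelihood test, beside 2.11% of all tested genes. At an unadjusted p under 0.05 in that test 1 (*CadN*) differed, with no share of all genes computed. edgeR's exact test, DESeq2 and limma-voom also called 0. The intervals were narrow for *shg* (log2 difference 0.04, 95% interval -0.19 to 0.26) and *arm* (0.00, -0.18 to 0.19), and wide for *Cad99C* (0.37, -0.21 to 0.96) and *ft* (0.32, -0.12 to 0.75). A missed threshold does not show that the mutants were alike.

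Many of the 9 genes also had their highest level in the same library of a genotype. This counts rank alone: in wild type the next library was close for *arm* (279.9 against 279.6 CPM) and *shg* (177.9 against 174.1 CPM). Wild-type library 3 was the highest wild-type library for 9 of 9 genes, beside 26.35% of all tested genes, *nonstop* library 3 for 6 of 9, beside 22.93%, and *sgf11* library 1 for 7 of 9, beside 23.57%. Of 7 epithelial and tracheal markers, 6, 5 and 4 were highest in these same libraries of wild type, *nonstop* and *sgf11*, and of 9 eye disc markers 4, 6 and 6. Of 8 neuroblast markers the numbers were 3, 3 and 4, of 10 neuronal markers 7, 1 and 2, and of 12 glial markers 1, 1 and 1. The epithelial and tracheal sum ranged from 331.6 to 478.5 CPM in wild type, from 415.7 to 542.6 CPM in *nonstop* and from 382.3 to 475.9 CPM in *sgf11* glia, with its highest value in these libraries. The part of other cell types in the levels of the 9 genes was not tested.

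Markers of other cells differed between genotypes too, and their counts are to be read against 18.7% of all genes called higher and 17.0% lower in *nonstop* and 16.4% and 14.1% in *sgf11* glia. The neuronal sum was 679.8 to 940.5 CPM in wild type, 1044 to 1210 CPM in *nonstop* and 1017 to 1167 CPM in *sgf11* glia, above wild type in all 8 mutant libraries. Of 10 neuronal markers, 7 were called higher and 0 lower in each mutant, *Gad1*, the enzyme that makes GABA, among them (log2 fold change 1.30 and 1.09). *elav*, a neuronal RNA-binding protein, was not called.

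The eye disc sum was 146.6 to 159.1 CPM in wild type, 125.9 to 145.7 CPM in *nonstop* and 123.6 to 134.0 CPM in *sgf11* glia, below wild type in all 8 mutant libraries. *sev* made up 33.1 to 57.7% of this sum, and itself overlapped between *nonstop* and wild type. Without *sev* the sum was 76.94 to 90.55 CPM in wild type, 61.57 to 93.2 CPM in *nonstop* and 57.95 to 89.72 CPM in *sgf11* glia. Both mutants then overlapped wild type, through *nonstop* library 3 (93.2 CPM) and *sgf11* library 1 (89.72 CPM) alone. Of 9 eye disc markers, 1 was called in the 2 comparisons, *ato*, the proneural gene of photoreceptors, which was lower in *sgf11* glia (-1.26, a call lost under 5 of 23 alternatives). The neuroblast sum was set by *pros*, a fate determinant that made up 85.1 to 93.5% of it and was not called (0.29 and 0.36). Without *pros* the sum was 112.4 to 125.1 CPM in wild type, 78.93 to 102.6 CPM in *nonstop* and 73.57 to 106.7 CPM in *sgf11* glia, below wild type in all 8 mutant libraries. Of the 8 neuroblast markers, 1 was called lower in *nonstop* and 3 in *sgf11* glia, and 0 higher. The list did not move 1 way: *insc*, named after its values were seen, was at 0.24 in *nonstop* and 0.62 in *sgf11* glia. The latter narrowly missed the threshold (FDR 0.01143). *mira*, which sorts fate determinants in dividing neuroblasts, was lower in both (-0.80 and -1.16), and *dpn* (-0.61, a call lost under 6 of 23 alternatives) and *ase* (-0.61, named after its values were seen), both neuroblast transcription factors, in *sgf11* glia.

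The epithelial list of 7 had 1 gene called higher and 1 lower in each mutant. The one higher was *crb*, an apical polarity gene (1.29 and 0.76). The one lower was *vvl*, named after its values were seen (-0.90 and -0.96). The glial sum was 2562 to 2915 CPM in wild type, 2430 to 4143 CPM in *nonstop* and 2902 to 4513 CPM in *sgf11* glia. Of 12 glial markers, 4 were called higher and 2 lower in *nonstop* glia, and 4 higher and 0 lower in *sgf11* glia. *repo*, the glial transcription factor, was not called (-0.29 and -0.23), and *rumpel*, a glial transporter, was higher in both (2.07 and 2.06). So were *alrm* (1.11 and 1.42) and *Eaat1* (0.71 and 0.76), both named after their values were seen. *alrm* was the largest glial marker in the mutant libraries, at 20.5 to 28.9% of the sum. The 2 called lower, named after their values were seen, were *moody*, a receptor of the blood-brain barrier (-0.54 in *nonstop*, FDR 0.004673), and *loco*, a regulator of G protein signalling (-0.40, FDR 0.003311), which did not pass the test in *sgf11* glia (-0.46 and -0.30). Whether the falls of *shg* and *arm* go with any of these lists was not tested.

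Lists of genes that act with the cadherins were counted in the same fit. Of 8 other cadherin-domain genes tested of 9 listed, 2 rose and 0 fell in each mutant, beside 18.7% and 16.4% of all genes called higher, and 1 rose in both, beside 13.1%. The median log2 fold change was 0.34 in *nonstop* and 0.18 in *sgf11* glia. The gene in both was *Ret*, a receptor tyrosine kinase with cadherin repeats, which rose from 22.2 ± 4.87 CPM (SD, n = 4) to 46.7 ± 6.24 and 44.4 ± 7.44 CPM (log2 fold change 1.07 and 1.0) and was also a qRT-PCR target. *Cad87A*, named after its values were seen, had 189 ± 4.25 CPM in wild-type libraries, 245 ± 18.5 in *nonstop* libraries and 1137 ± 182 in *sgf11* libraries (SD, n = 4 for each). Its log2 fold change was 2.59 in *sgf11* (FDR 5.994e-11) and 0.37 in *nonstop* glia (FDR 0.0124), and the *nonstop* against *sgf11* difference was -2.22 (FDR 1.374e-09). *Cad96Cb*, also named after its values were seen, rose in *nonstop* (1.0, FDR 3.62e-04) and did not pass the test in *sgf11* glia (0.49, FDR 0.0494).

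Of 11 adherens junction partners, 1 rose and 2 fell in *nonstop* and 1 fell in *sgf11* glia, beside 18.7% of all genes called higher and 17.0% lower in *nonstop* and 14.1% lower in *sgf11* glia, with a median of -0.18 in both. The gene called in both was *Rap1*, a small GTPase that promotes junction assembly, with a log2 fold change of -0.33 (SE 0.09, FDR 0.007465) and -0.40 (SE 0.09, FDR 0.002192). Its call was lost under 12 of 24 alternatives in *nonstop* and 1 of 24 in *sgf11* glia. Of 13 Wingless pathway genes tested, 2 rose and 2 fell in *nonstop* and 1 fell in *sgf11* glia, against the same shares, with medians of -0.09 and -0.22. *fz3*, a Frizzled receptor gene that responds to Wingless signal, fell in both (-0.65 and -0.72), whereas *Notum*, an enzyme that inactivates Wnt ligands and was named after its values were seen, rose in *nonstop* alone among the 2 comparisons with wild type. *Notum* had 9.38 ± 1.85 CPM in wild-type libraries, 26.2 ± 4.8 in *nonstop* libraries and 11.3 ± 1.69 in *sgf11* libraries (SD, n = 4 for each), and differed between the mutants by 1.21 (FDR 2.0e-04).

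Of 15 genes of the Fat and Hippo pathway tested, 5 fell and 2 rose in *nonstop* and 6 fell in *sgf11* glia, beside 17.0% and 14.1% of all genes called lower and 18.7% higher in *nonstop* glia, and 4 fell in both, beside 11.8%. The median was -0.29 and -0.43, the first within the quartiles of all genes in *nonstop* glia (-0.364 to 0.532). The 4 were *lft*, which regulates the levels of Fat and Dachsous (-1.28 and -0.89), *mats*, a cofactor of the Warts kinase (-0.76 and -0.57), the kinase *hpo* (-0.62 and -0.55), and *dco*, the casein kinase that phosphorylates Fat (-0.58 and -0.43). The 2 that rose in *nonstop* glia were *fj*, the Golgi kinase that modifies Fat and Dachsous (0.98), and *app*, a palmitoyltransferase that acts on Fat (0.67). Neither passed the test in *sgf11* glia (0.54 and 0.30), and *dachs*, the myosin downstream of Fat, fell in *sgf11* (-0.84) but did not pass in *nonstop* glia (-0.41, FDR 0.0406). Of the 5 core planar polarity genes that act with *stan*, 3 fell in each mutant, beside 17.0% and 14.1% of all genes, and 2 in both, beside 11.8%, with medians of -0.39 and -0.43. The 2 were *dsh*, the cytoplasmic scaffold (-0.39 and -0.43), and *pk* (-0.35 and -0.43), whose calls were lost under 17 of 23 and 14 of 24 alternatives in *nonstop* and 8 of 23 and 4 of 24 in *sgf11* glia. The receptor *fz* fell in *sgf11* glia (-0.49, FDR 1.616e-04). Of 4 partners of *kug* and *Cad99C*, 1 fell in *nonstop* and 0 in *sgf11* glia by edgeR's quasi-likelihood test, beside 17.0% and 14.1% of all genes. It was *Sans*, named after its values were seen (-1.36, FDR 0.004322), which was near the floor at 0.8338 to 3.571 CPM in *nonstop* glia.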

How the data were processed

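Nuclear RNA was sequenced from glial nuclei of 3 genotypes, 4 libraries each. The deposited values are whole read counts per gene, which the authors obtained by HTSeq 0.6.1 (no strand) from alignments to BDGP5 by TopHat2 2.0.13 on Bowtie2 2.2.4, after read trimming by Trimmomatic 0.32. Entries that name no gene held 96.13 to 96.68% of all counts and were left out. The authors' tables of fold changes, mean log2 CPM, p-values and FDR were not used.

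Genes over 1 CPM in at least 4 of 12 libraries (9966) were kept, TMM-normalized and tested with edgeR 4.0.16 by the quasi-likelihood test in 1 fit of all libraries (R 4.3.3, limma 3.58.1, DESeq2 1.42.0; Python 3.11.15, pandas 2.3.3, numpy 2.4.6, matplotlib 3.10.9), with Benjamini-Hochberg adjustment and a prior count of 0.125. The biological coefficient of variation was 0.154. P-values measure the spread between these libraries, which the labels do not tie to separate crosses. Symbols (15002 of 15682 identifiers), arms and exon lengths came from the BDGP6 annotation. Library numbers pair nothing in the labels, and deviations of same-numbered libraries correlated at -0.076 to 0.122.

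The members and lists were chosen with earlier results of these data known. Named were all members, up to 4 genes per pathway list called in both mutants in 1 direction by mean fold change, of each marker list its first gene and the one with the largest mean change, and *not* and *Sgf11*. Others are said to be named after their values were seen, among them *fj*, *app*, *dachs* and *fz*. Alternatives were other scalings, filters, tests and an FDR of 0.05, a replicate block, and each library left out in turn. Leaving out both libraries 3 was chosen after seeing the data.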

Additional observations from a re-analysis of the deposited data

Results flagged for a closer look

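Among 108 groups of 4 libraries, some had 1 library apart from the rest by a gap-to-range ratio above 0.829, which chance gives in about 5% of groups. Every group that did is listed here, and whether they exceed that share was not tested. *alpha-Cat* in wild type had its highest library at 166.4 CPM, library 3. *Rap1* in wild type had its lowest library at 90.94 CPM. *mira* in *sgf11* glia had its highest library at 11.81 CPM, and *crb* in *sgf11* glia its lowest at 60.37 CPM. *fj* had its highest library at 39.82 CPM in wild type and at 91.28 CPM in *nonstop* glia, in both cases library 3. Of the tests of a difference between the mutants, *Cad87A* (log2 difference -2.22, *nonstop* against *sgf11*) and *Notum* (1.21) passed an FDR of 0.01 in edgeR's quasi-likelihood test.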

How the results depend on the processing

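*shg* was called lower in both mutants under all 24 alternatives, at log2 fold changes of -0.99 to -0.71 in *nonstop* and -0.97 to -0.77 in *sgf11* glia. *arm* was called under all but 3 alternatives in *nonstop* and all but 1 in *sgf11* glia. *CadN* in *sgf11* glia was called under 14 of 24 alternatives and *Cad99C* under 11 of 23. With TMM factors from the 3633 genes that pass the filter on totals of all entries, the median of all genes moved by 0.146 in *nonstop* and 0.123 in *sgf11* glia. In *nonstop* glia, 2 members (*CadN2* and *alpha-Cat*) were then called higher and 1 (*shg*) lower, and 1 (*shg*) lower in *sgf11* glia. With that filter itself, 7 members were tested, since *CadN2* and *Cad99C* did not pass it. Of these, 1 (*alpha-Cat*) was higher and 1 (*shg*) lower in *nonstop* and 2 lower in *sgf11* glia. At an FDR of 0.05, 1 member (*CadN2*) was higher in *nonstop* glia. With library size alone, 2 were lower in *sgf11* glia. With libraries 3 of wild type and *nonstop* left out, 1 was lower in *nonstop* and 2 in *sgf11* glia. Leaving out 1 library at a time, the number called lower ranged from 2 to 3 in *nonstop* and from 2 to 4 in *sgf11* glia. With a replicate block, 2 members were lower in *nonstop* and 4 in *sgf11* glia, and no call changed.

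Uncalled values changed sign, and the cause was not tested. With the TMM factors above and with that filter, *stan* in *nonstop* was 0.0848 in both, *elav* in *sgf11* 0.11 in both, and *kug* between the mutants 0.0041 in both. With library size alone, *shg* and *arm* between the mutants were -0.0403 and -0.0744. Without both libraries 3, *ft* in *sgf11* was 0.0392, *elav* in *sgf11* 0.0567, and *shg* between the mutants -0.0176. Leaving out 1 library, *ft* ranged from -0.10 to 0.37 in *nonstop* and from -0.24 to 0.0392 in *sgf11*, *stan* in *nonstop* from -0.20 to 0.0966, *alpha-Cat* in *sgf11* from -0.0048 to 0.16, and *elav* in *sgf11* from -0.0998 to 0.0566. Between the mutants, *shg* ranged from -0.0315 to 0.14, *kug* from -0.0569 to 0.0089 and *arm* from -0.0358 to 0.0368. The low counts of *CadN2* and *Cad99C*, 39 to 186 per library, limit what can be seen of them.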
